A study of Mus musculus with 7 samples.

Results

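The FGF receptor genes Fgfr1, Fgfr2 and Fgfr3 and the feedback genes Spry1, Spry2, Spry4, Etv4, Etv5 and Dusp6 were followed across 7 mouse ATAC-seq libraries. These 9 genes, of 20661 autosomal protein-coding genes in the annotation, were chosen by name for their related roles. A peak was counted for a gene when it lay inside the gene body or within 50 kb of either end. The genes were taken at their GRCm38 positions. Peaks of all 7 libraries that overlapped by at least 1 bp were joined into open regions, and 147 of these lay near the 9 genes. Because the deposited lists differ in length, each count was repeated with the 38000 autosomal peaks of smallest p-value in each library, called the lists of equal length below. These held 98 regions near the 9 genes.

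Ectoderm of the embryonic first pharyngeal arch, peeled from the mesenchyme at embryonic day 11.5 after Dispase II treatment, gave 2 libraries. Sox2-positive cells gave 2 further libraries. They were sorted by fluorescence at postnatal day 2 from the labial cervical loop, the epithelial niche at the growing end of the lower incisor. The sort used a mouse line in which the endogenous Sox2 promoter drives GFP, and the labels name the cells DESC. Single libraries, with no replicate, came from 3 whole teeth of postnatal day 2: the lower incisor, the lower first molar and the upper first molar. These teeth hold epithelium and mesenchyme together. The labels do not say whether replicate libraries came from separate animals or pools, nor give the strain of the other mice.

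FGF receptors are membrane tyrosine kinases that signal through RAS and the ERK kinases when an FGF ligand binds. The signal switches on genes of 2 kinds that serve here as its feedback arm: the ETS-family transcription factors Etv4 and Etv5, which carry the response, and the inhibitors of the Sprouty family and Dusp6, which dampen it. In the tooth, FGFs pass between mesenchyme and epithelium, and in the mouse incisor they help to keep the cervical loop supplied with progenitor cells. Loss of Sprouty genes in mice is known to give extra teeth and misplaced enamel.

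The libraries held between 39017 and 82461 deposited peaks, with the fewest in the 2 Sox2-positive libraries and the most in ectoderm replicate 1. The lists of equal length kept between 47.0% and 99.1% of the autosomal peaks of a library. Their p-value cuts therefore differ. The lowest −log10 p-value kept was 4.79 and 3.82 in ectoderm replicates 1 and 2. It was 3.33 and 2.94 in Sox2-positive replicates 1 and 2, 4.01 in the incisor, and 4.28 and 4.27 in the lower and upper molar. The read depth is unknown. With full lists, between 8 and 9 of 10 epithelial marker genes carried a peak within 1 kb of a start site in every library. Trp63 was the marker without one in all 7, at the starts listed in the annotation used. All 6 dental epithelial progenitor markers, Sox2 among them, carried one in every library with full lists. With lists of equal length the epithelial markers fell to 6 in the incisor, where Epcam, Grhl2 and Cldn4 dropped out beside Trp63, Sox2 had no start-site peak in any whole tooth, and Bmi1 had none in ectoderm replicate 1. With full lists, of 10 mesenchyme and odontoblast markers, 6 and 7 did so in the ectoderm libraries, 9 in each Sox2-positive library, and between 9 and 10 in the whole teeth. Pdgfra and Runx2 had a start-site peak in all 5 postnatal libraries and in neither ectoderm library, and Dspp, which marks odontoblasts, had one in the whole incisor alone. Of 5 enamel secretion genes, between 1 and 4 did so, with the fewest in ectoderm. Blood, endothelial, neural and muscle markers had between 1 and 3 start-site peaks per list and library with full lists, and between 0 and 3 at equal length. The part of other cell types in the differences described next was not tested.

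Every one of the 9 genes carried a start-site peak in all 7 libraries. A start-site peak is one that overlaps the 1 kb on either side of a start in the RefSeq promoter table, which lists 6 of the 9 genes. Fgfr1, Spry4 and Etv4 were measured at the gene ends. Over all 20661 genes, 55.7% had a start-site peak in every library with full lists and 51.4% with lists of equal length. All 9 also held theirs with lists of equal length. The promoters of Dusp6, Spry1, Etv5 and Fgfr3 are printed here because the summit of the start-site peak, its point of highest signal, lay within 250 bp of the start in all 7 libraries. Each run is the 250 bases before the start on the gene's own strand, 5′ to 3′, from RefSeq on GRCm38.p6. The motifs searched on both strands were the ETS core GGAA, read as TTCC on the other strand, and the CCAAT box, read as ATTGG on the other strand, which can share its last bases with a GGAA. Capitals mark the ETS core in Dusp6, Spry1 and Fgfr3 and the CCAAT box in Etv5. The windows are chr10:99262981-99263230 on the plus strand for Dusp6, chr3:37639697-37639946 plus for Spry1, chr5:33721474-33721723 plus for Fgfr3 and chr16:22439571-22439820 minus for Etv5.
Dusp6: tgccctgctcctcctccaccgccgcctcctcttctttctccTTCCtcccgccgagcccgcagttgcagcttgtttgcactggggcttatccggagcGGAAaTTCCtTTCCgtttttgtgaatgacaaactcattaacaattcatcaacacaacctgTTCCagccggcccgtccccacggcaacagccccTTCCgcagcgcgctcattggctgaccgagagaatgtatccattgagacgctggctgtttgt
Spry1: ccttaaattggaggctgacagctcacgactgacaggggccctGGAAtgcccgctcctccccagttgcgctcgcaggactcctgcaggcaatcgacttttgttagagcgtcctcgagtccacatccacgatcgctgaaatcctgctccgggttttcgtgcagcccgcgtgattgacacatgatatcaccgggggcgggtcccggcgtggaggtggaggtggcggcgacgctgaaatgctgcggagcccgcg
Fgfr3: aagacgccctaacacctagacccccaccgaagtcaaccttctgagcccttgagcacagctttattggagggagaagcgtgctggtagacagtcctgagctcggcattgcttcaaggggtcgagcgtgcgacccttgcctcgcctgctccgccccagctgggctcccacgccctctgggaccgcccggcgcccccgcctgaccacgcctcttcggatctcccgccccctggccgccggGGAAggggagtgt
Etv5: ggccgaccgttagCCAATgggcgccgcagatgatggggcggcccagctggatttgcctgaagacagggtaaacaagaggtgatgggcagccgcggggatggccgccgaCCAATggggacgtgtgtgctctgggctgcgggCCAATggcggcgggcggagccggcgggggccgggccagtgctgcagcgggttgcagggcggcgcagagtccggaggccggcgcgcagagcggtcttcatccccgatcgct

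The Dusp6 window held 6 copies of the ETS core, a number reached by 8.87% of the 21262 RefSeq promoter windows of the same length. The Spry1 and Fgfr3 windows held 1 copy each, and 93.2% of all windows held at least 1. The Etv5 window had none, and it had 3 CCAAT boxes. Of all windows, 3.36% had as many and 35.4% had at least 1. The Dusp6, Spry1 and Fgfr3 windows held 1 CCAAT box each, read as ATTGG and left in lower case above. The Etv5 window was 71.2% G and C, against a median of 55.6% over all windows. Fgfr3 and Etv5 have a second, inner start each, where the windows held 5 and 4 copies of the ETS core, numbers reached by 17.9% and 33.0% of all windows. A match is a description of these letters and not a measured binding site.

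Dusp6, the phosphatase that removes the activating phosphates from ERK, had the start-site peak of highest signal among the 9 in 5 of 7 libraries, and Etv5 had it in Sox2-positive replicate 2 and the incisor. The Dusp6 summit fell between 1 and 14 bp after the start in all 7 libraries. The authors' signal there was 10501 and 9239 in ectoderm replicates 1 and 2, 6055 and 3186 in Sox2-positive replicates 1 and 2, 6159 in the incisor, 6990 in the lower molar and 7464 in the upper molar. The signal is each list's own value, so it serves here to rank peaks within a list. By it the Dusp6 peak stood between the top 0.0303% and the top 4.09% of its list. Joined over the libraries, the open region at Dusp6 was 5385 bp wide (chr10:99260964-99266348) and covered the start and most of the 4.26 kb gene. At Etv5 the summit lay between 88 and 217 bp before its outer start, and the peak stood between the top 0.394% and 1.62%. Spry2, an inhibitor of receptor tyrosine kinase signalling, had its summit between 547 and 573 bp before the start, at the top 0.375% to 5.70%.

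Fgfr2, the receptor that in its epithelial form binds mesenchymal FGFs, had its summit between 433 and 475 bp after the start, at the top 3.93% to 21.5%. At Fgfr3, the summit lay between 16 and 37 bp after the outer start, at the top 3.33% to 25.9%. Spry1 had the weakest start-site peak of the 9, at the top 10.8% to 48.7%. Its lowest place was in the Sox2-positive libraries, at the top 46.8% and 48.7% of their lists (signal 561 and 577). In ectoderm it stood at the top 10.8% and 22.1% (signal 2626 and 1806). For Fgfr1, Spry4 and Etv4, one gene end had a peak in all 7 libraries, the lower-coordinate end of Fgfr1 and the higher-coordinate end of the others. These peaks ranked between the top 4.05% and 15.3%, with summits within 73, 42 and 119 bp of that end. The other end of Fgfr1 had a peak in 4 libraries, at the top 1.17% to 78.6%, with summits between 496 and 2900 bp away. Start-site openness therefore did not separate the groups as present or absent for any of the 9 genes. The start-site peaks varied in width between libraries, and they count in the covered share of the windows described below.

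**Figure D1:**
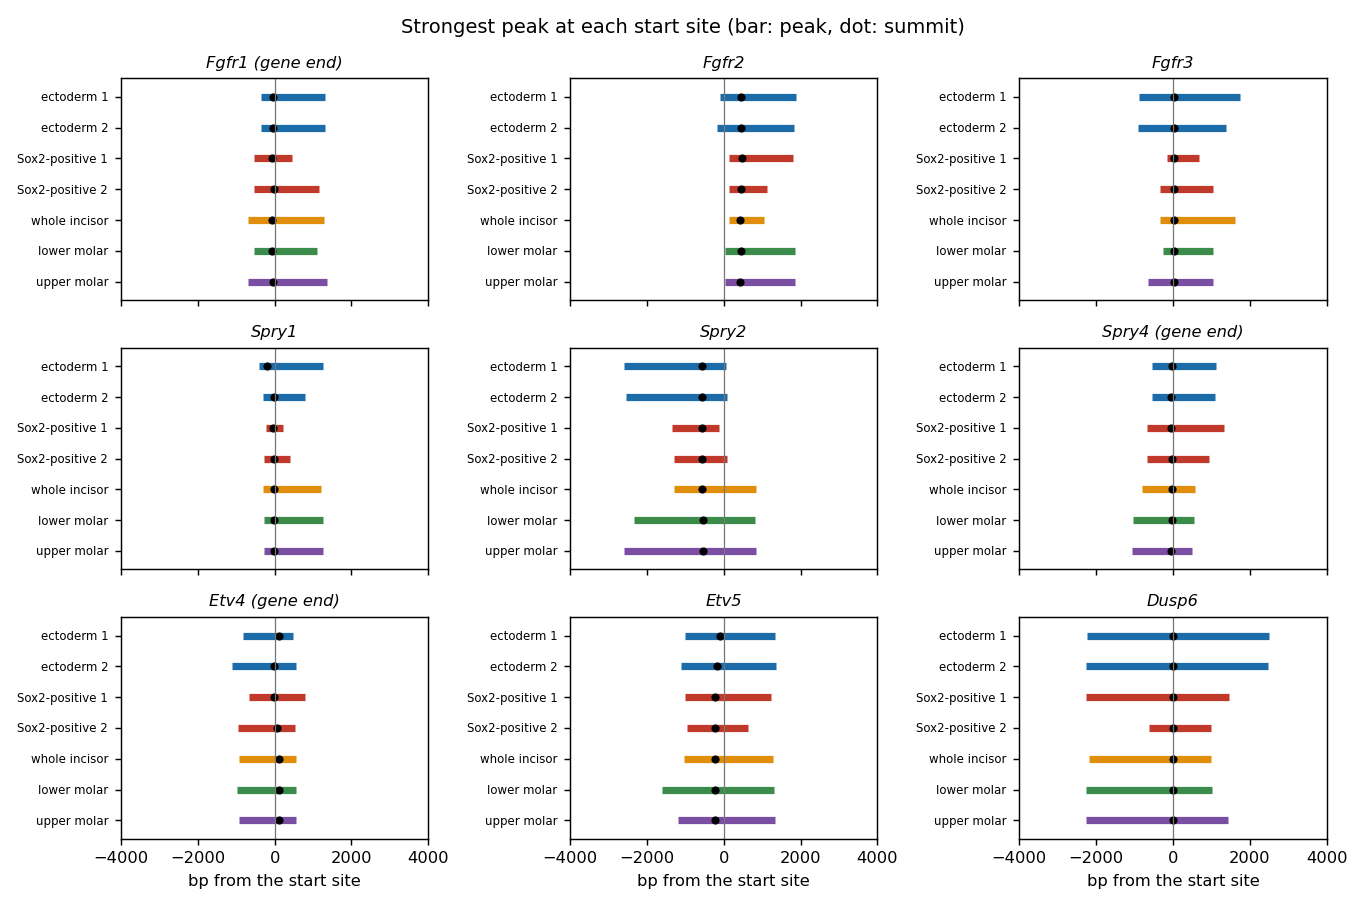
Extent (bar) and summit (dot) of the strongest start-site peak of each gene in each library, in bp from the start site along the gene's strand, or from the gene end in genome order for Fgfr1, Spry4 and Etv4. All 9 genes have a peak in all 7 libraries, and the Dusp6 summits lie between 1 and 14 bp of the start.

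The number of peaks in the windows was compared between the 2 ectoderm and the 2 Sox2-positive libraries. This sets embryonic arch ectoderm against sorted Sox2-positive cells of the postnatal incisor. The groups differ at once in stage, tissue and way of isolation, and these cannot be told apart. With full lists the 9 windows held 96 and 64 peaks in ectoderm replicates 1 and 2, 72 and 75 in the Sox2-positive libraries, 93 in the incisor, 106 in the lower molar and 103 in the upper molar. In the same order the totals were 49, 46, 63, 75, 62, 58 and 56 for lists of equal length. A gene was called when the lower library of one group exceeded the higher of the other. With 2 libraries against 2, the smallest two-sided exact permutation p is 0.333. That test therefore cannot pass 0.05 here, and the calls are descriptions.

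With full lists, Fgfr2 and Spry2 had more peaks in both ectoderm libraries, 2 of 9 genes (22.2%), where 46.2% of the 18493 genes with a peak in at least 1 of these libraries did so. Fgfr1 and Fgfr3 had more in both Sox2-positive libraries, 22.2% of the 9 against 3.43% of all. With lists of equal length, 0 of 9 had more in ectoderm, against 23.1% of 17996 genes. Then 4 of 9 (44.4%), Fgfr1, Fgfr3, Etv4 and Dusp6, had more in the Sox2-positive cells, against 20.2% of all. At Dusp6 the ectoderm libraries went from 11 and 4 peaks with full lists to 2 and 3. The Sox2-positive libraries there went from 6 and 6 to 5 and 6. At Etv4 the ectoderm libraries went from 7 and 4 to 4 and 3. The Sox2-positive libraries there went from 7 and 10 to 6 and 10. Fgfr1 and Fgfr3 were thus called the same way with either kind of list. When a peak was counted only if it lay inside the gene or closer to it than to another protein-coding gene, 0 of 9 were called for the Sox2-positive cells with full lists, so both of these calls rested on peaks closer to a neighbouring gene. In that setting with lists of equal length, 3 of 9 were called, namely Fgfr3, Etv4 and Dusp6. Without ectoderm replicate 2, the shorter of the 2 ectoderm lists, 5 genes had more peaks in ectoderm with full lists (Fgfr2, Spry1, Spry2, Etv5 and Dusp6), and without ectoderm replicate 1, 4 had more in the Sox2-positive cells.

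**Figure D2:**
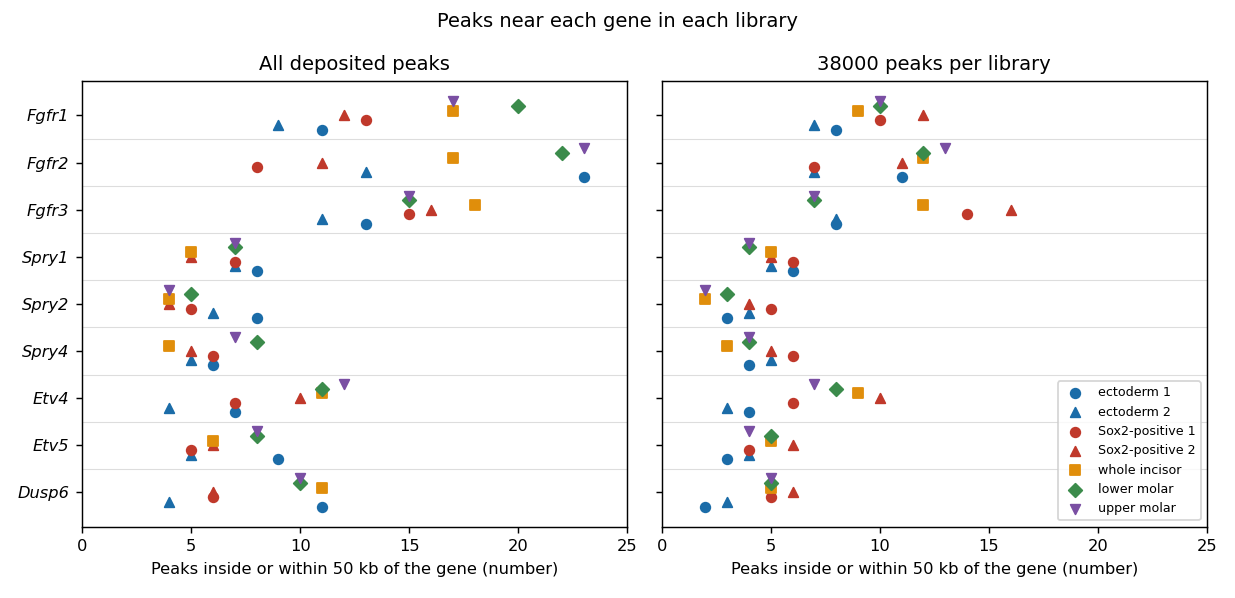
Number of peaks inside or within 50 kb of each gene (horizontal axis) in each of the 7 libraries, with all deposited peaks (left) and with 38000 peaks per library (right). Fgfr1 and Fgfr3 have more peaks in both Sox2-positive libraries (red) than in both ectoderm libraries (blue) in both panels, and Fgfr2 and Spry2 have more in ectoderm in the left panel alone.

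The share of each window covered by peaks gave a second measure that weighs wide peaks more. With full lists, 5 of 9 genes (Fgfr2, Spry1, Spry2, Spry4 and Etv5) were covered more in both ectoderm libraries, against 73.2% of all genes, and 2 of 9 (Fgfr1 and Etv4) more in both Sox2-positive libraries, against 3.83%. At equal length, Fgfr2, Spry1, Spry2 and Etv5 were covered more in ectoderm, 44.4% against 56.9%, and again Fgfr1 and Etv4 more in the Sox2-positive cells, 22.2% against 10.7%. The median difference, Sox2-positive minus ectoderm, was -1.46 percentage points of the window over the 9 genes and -1.09 over all genes with full lists. It was -0.19 and -0.56 with lists of equal length. The 9 genes therefore did not move as a block: Fgfr1 and Etv4 lay toward the Sox2-positive end and Spry1 toward the ectoderm end.

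**Figure D3:**
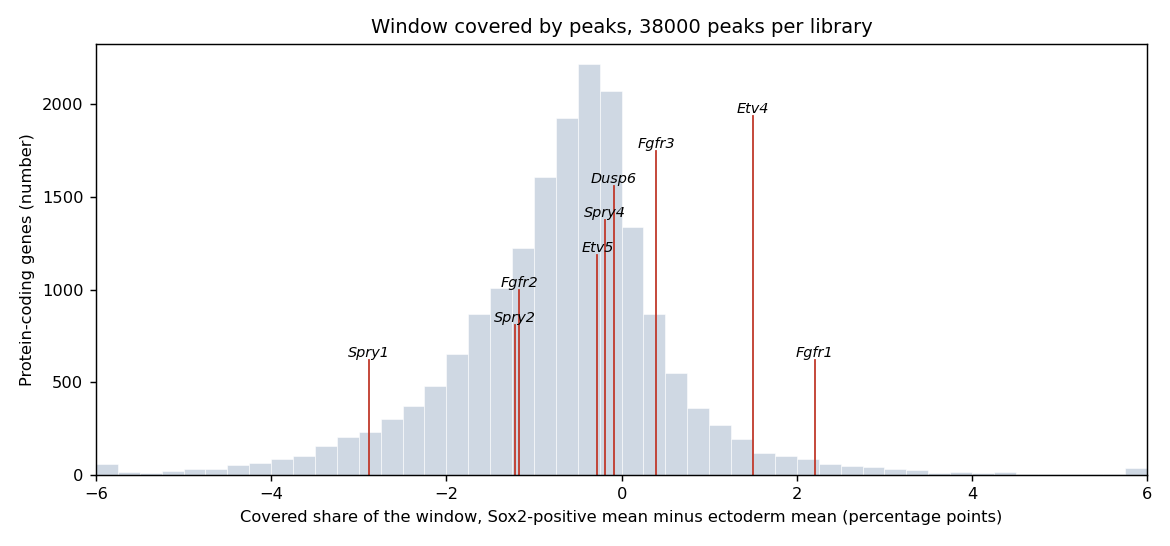
Difference in the share of the window covered by peaks, Sox2-positive mean minus ectoderm mean in percentage points, over all protein-coding genes (grey bars, number of genes per bin) and for the 9 genes (red lines, whose heights only separate the names), with 38000 peaks per library. The outermost bars also hold all genes beyond the axis. Fgfr1 at 2.20 and Etv4 at 1.502 lie to the right, and Spry1 at -2.88 lies to the left.

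Fgfr1 (chr8:25518759-25575718) is a receptor used by mesenchymal and many epithelial cells. Its window held 11 and 9 peaks in the ectoderm libraries, 13 and 12 in the Sox2-positive libraries, 17 in the incisor, 20 in the lower molar and 17 in the upper molar. The lists of equal length gave 8, 7, 10, 12, 9, 10 and 10 in the same order of libraries. Peaks covered 5.43% ± 0.228 of the window in ectoderm and 7.63% ± 0.879 in the Sox2-positive cells with lists of equal length (SD, n = 2 each). That difference of 2.20 percentage points was larger than in 98.2% of genes. The groups did not overlap in any of these measures.

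The Fgfr1 difference came mostly from just past the higher-coordinate end of the gene, over the neighbour Letm2. A region of 4751 bp (chr8:25576135-25580885) was present in all 5 postnatal libraries and in neither ectoderm library with both kinds of list. A region of 3758 bp (chr8:25583256-25587013) had the same pattern with full lists alone. At equal length it fell into separate peaks of Sox2-positive replicate 1 (chr8:25584676-25585631) and replicate 2 (chr8:25586069-25586764), which do not overlap, and no whole tooth had a peak there. In the wider region the authors' signal was 3220 and 1031 in the Sox2-positive libraries, 3810 in the incisor, 5155 in the lower molar and 4854 in the upper molar. The third region that was Sox2-positive without ectoderm lay 29.6 kb beyond the other end (chr8:25488743-25489205). The one ectoderm-only region near Fgfr1 lay 34.7 kb beyond that same end (chr8:25483339-25484011, signal 1100 and 207). In all 7 libraries 7 regions were open, 4 of them touching the gene body and 3 outside it. The strongest of these by its lowest signal was inside Letm2 (chr8:25596850-25598012, signal from 2674 to 4137).

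Fgfr2 (chr7:130162451-130266808, minus strand) had the most regions, 38, in the longest window, and no other protein-coding gene lies in it. It had 23 and 13 peaks in the ectoderm libraries, 8 and 11 in the Sox2-positive libraries, 17 in the incisor, 22 in the lower molar and 23 in the upper molar. The groups did not overlap, and ectoderm replicate 1 and the molars were highest. At equal length, the ectoderm libraries had 11 and 7, the Sox2-positive libraries 7 and 11, and the groups overlapped. The covered share still differed without overlap, at 3.98% ± 0.587 against 2.82% ± 0.437 (SD, n = 2 each). A difference further toward ectoderm was found for 28.6% of all genes.

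Of the 29 Fgfr2 regions seen in at least 1 ectoderm or Sox2-positive library, 9 (31.0%) were open in both ectoderm libraries and in neither Sox2-positive library, called ectoderm-only. At the other 8 genes this share was between 0 and 28.6%, and over regions near all genes it was 22.5%. Lists of equal length gave 5 of 18 (27.8%), of which 4 were among those 9, against 17.5% near all genes. Distances are given from the nearer start or gene end, to the centre of a region inside a gene and to the near edge of one outside. The strongest lay in the gene body, 50.8 kb after the start (chr7:130215308-130216801), with signal 3105 and 2607 in ectoderm, 884 in the lower molar and 612 in the upper molar. It was in neither the incisor nor the sorted incisor cells. A second body region had the same pattern 73.9 kb after the start (chr7:130192493-130193352). Of the 9 regions, 5 had no peak in any postnatal library, among them one 23.8 kb before the start (chr7:130290580-130291413, signal 1535 and 641) and one 84.2 kb after it in the body (chr7:130182144-130183054, signal 1657 and 507).

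Fgfr2 also had 3 regions open in both Sox2-positive libraries and not in ectoderm, and each of them was open in the incisor and both molars. The strongest lay in the gene body 8.08 kb after the start (chr7:130258228-130259236), with signal 500 and 533 in the Sox2-positive libraries, 846 in the incisor and 1387 and 1396 in the lower and upper molar. The others lay 18.9 kb before the start (chr7:130285669-130286925) and 14.5 kb past the end of the gene (chr7:130146875-130147912). The locus thus held regions of both kinds, with full lists and at equal length.

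Fgfr3 (chr5:33721724-33737068, plus strand), best known as a brake on bone growth, had 13 and 11 peaks in ectoderm, 15 and 16 in the Sox2-positive libraries, 18 in the incisor and 15 in each molar. The numbers at equal length were 8, 8, 14, 16, 12, 7 and 7, and the molars joined ectoderm at the low end. The covered share was 8.90% ± 0.544 in ectoderm and 9.29% ± 2.86 in the Sox2-positive cells with lists of equal length (SD, n = 2 each), and the groups overlapped. In windows of 25 kb with full lists the Fgfr3 call was lost and Fgfr1 was the remaining gene. In windows of 100 kb the Fgfr1 call was lost instead, and Fgfr3 and Etv4 were called.

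Most of the open chromatin around Fgfr3 lay before the start, toward Tacc3. Of its 8 regions open in all 7 libraries, 7 lay outside the gene. One of them, 24.2 kb before the start (chr5:33693918-33697514), was 3597 bp wide, and its signal of 6816 and 4863 in ectoderm exceeded that of the start-site peak in the same libraries (4215 and 3216). In the Sox2-positive libraries the same region had 824 and 1615, against 1028 and 1768 at the start. Between and beside these constant regions stood 3 that were open in both Sox2-positive libraries and not in ectoderm, at 19.6, 23.0 and 31.6 kb before the start. All 3 were open in the incisor, 2 of them in the lower molar and none in the upper molar. The strongest was chr5:33701514-33702165, with signal 359 and 604 in the Sox2-positive libraries, 578 in the incisor and 269 in the lower molar. The one ectoderm-only region (chr5:33705205-33705982, signal 1068 and 442) was also open in the incisor.

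**Figure D4:**
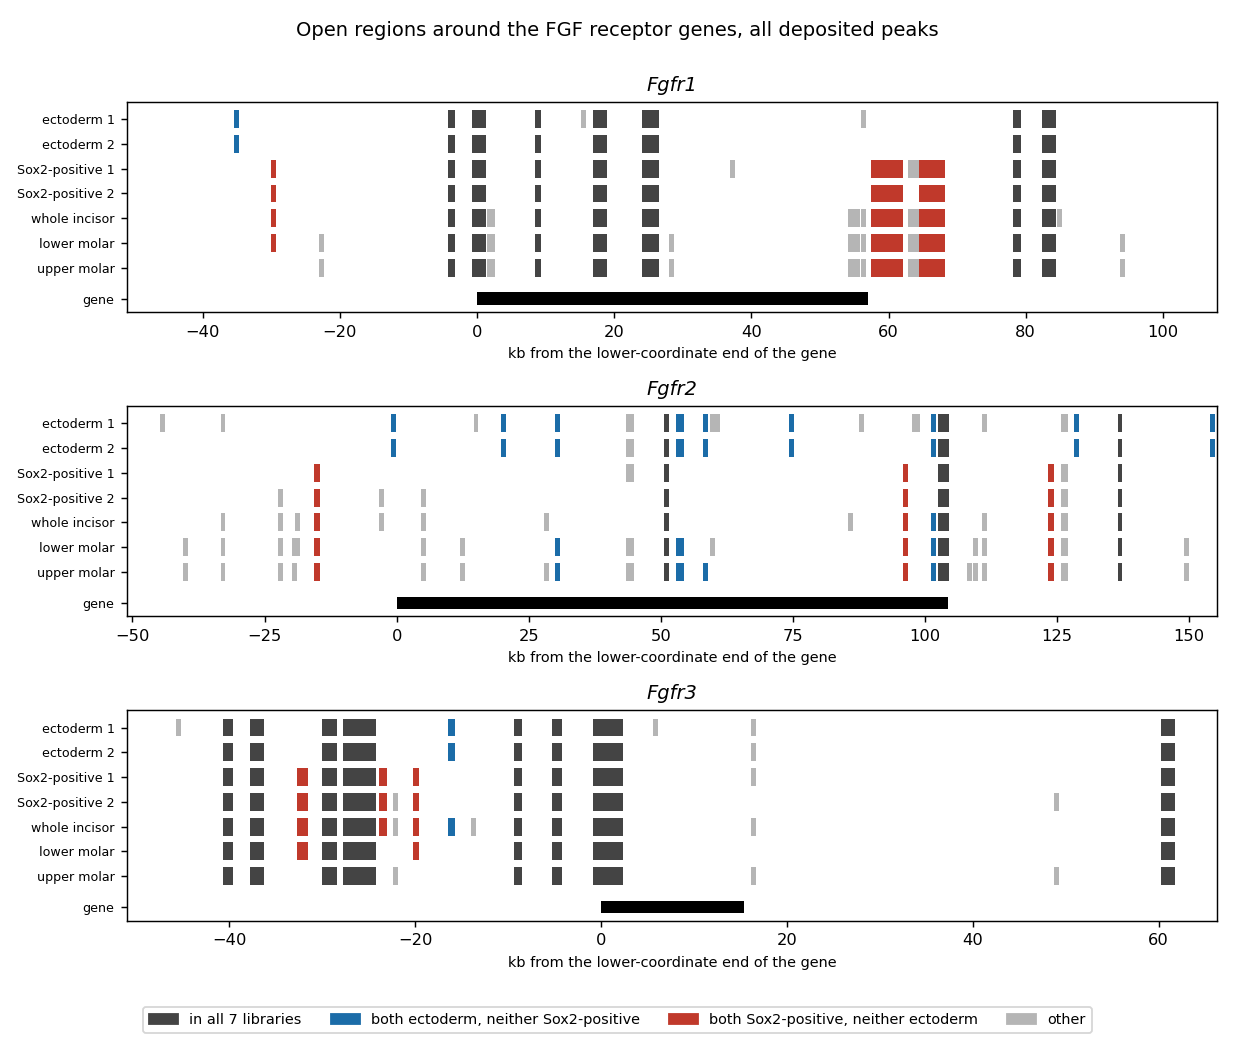
Open regions around the 3 receptor genes by library (rows), with distance in kb from the lower-coordinate end of the gene on the horizontal axis and the gene body as a black bar. Narrow regions are widened to be visible. Fgfr2 has 9 ectoderm-only regions (blue), and Fgfr1 has 2 wide regions just past the gene in all 5 postnatal libraries (red).

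The Sprouty genes had fewer regions, between 7 and 11 each. Spry1 (chr3:37639947-37644599) had 8 and 7 peaks in ectoderm, 7 and 5 in the Sox2-positive libraries, 5 in the incisor and 7 in each molar, and the groups touched at 7. They overlapped at equal length too, with 6, 5, 6, 5, 5, 4 and 4 peaks. The covered share of its window separated the groups with either kind of list. For lists of equal length it was 6.09% ± 0.30 in ectoderm and 3.21% ± 0.592 in the Sox2-positive cells (SD, n = 2 each), a difference toward ectoderm exceeded by 5.23% of genes. Spry1 lost its start-site peak in at least 1 library when each list was cut to the 50% of peaks with the smallest p-values, and the other 8 genes did not.

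Beyond the end of Spry1 lay a pair of regions with opposite patterns. The region at chr3:37659390-37660311, 14.8 kb past the gene, was open in all 5 postnatal libraries and in neither ectoderm library, with signal 682 and 588 in the Sox2-positive libraries, 1519 in the incisor, 521 in the lower molar and 903 in the upper molar. The region at chr3:37667495-37668132, 22.9 kb past the gene, was open in ectoderm (signal 1775 and 1571) and in no postnatal library. Both kept their call with lists of equal length, although there the first was no longer found in the molars. A region 42.3 kb before the start (chr3:37596217-37597607) was open in 6 libraries and absent from the incisor. Its signal was 3255 and 2559 in ectoderm, 701 and 593 in the Sox2-positive cells, and 779 and 1159 in the lower and upper molar.

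Spry2 (chr14:105891947-105896819) had 8 and 6 peaks in ectoderm, 5 and 4 in the Sox2-positive libraries, 4 in the incisor, 5 in the lower molar and 4 in the upper molar. The groups did not overlap with full lists. They overlapped at equal length, where the numbers were 3, 4, 5, 4, 2, 3 and 2. Open chromatin was concentrated at the gene itself: the region over the start was 3479 bp wide (chr14:105895975-105899453), with signal from 2496 to 6593. One ectoderm-only region lay in the body (chr14:105892897-105894040, signal 820 and 487) and was open in both molars too. The other lay 23.8 kb before the start (chr14:105920594-105921242, signal 782 and 311) and had no postnatal peak.

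Spry4 (chr18:38586247-38601347) had 6 and 5 peaks in ectoderm, 6 and 5 in the Sox2-positive libraries, 4 in the incisor, 8 in the lower molar and 7 in the upper molar. Lists of equal length gave 4, 5, 6, 5, 3, 4 and 4. The 2 replicated groups overlapped in number either way, and no region near Spry4 belonged to one of them alone. A region 1.37 kb past the lower-coordinate end (chr18:38583795-38584874) was open in 6 libraries and absent from the incisor, as at Spry1. Its signal was 1235 and 898 in ectoderm, 238 and 634 in the Sox2-positive cells, and 1048 and 1962 in the lower and upper molar. The region over the other end of Spry4 had signal from 2095 to 2810 over the 7 libraries, and it overlaps the neighbour Arhgap26.

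Etv4 (chr11:101769747-101785310) encodes an ETS factor that is a widely used readout of FGF signalling. Its window had 7 and 4 peaks in ectoderm, 7 and 10 in the Sox2-positive libraries, 11 in the incisor, 11 in the lower molar and 12 in the upper molar, and the replicated groups touched at 7. At equal length they were 4, 3, 6, 10, 9, 8 and 7, and all postnatal libraries stood above both ectoderm libraries. The share covered was 3.22% ± 0.00979 in ectoderm and 4.72% ± 1.12 in the Sox2-positive cells with lists of equal length (SD, n = 2 each), a difference larger than in 96.6% of genes. A region in the body (chr11:101779558-101780832) was open in all 5 postnatal libraries and in neither ectoderm library, with signal 378 and 265 in the Sox2-positive libraries, 431 in the incisor and 585 and 785 in the molars. That call was lost at equal length, where Sox2-positive replicate 1 had no peak there. No ectoderm-only region was found near Etv4. Outside the gene at the higher-coordinate end, where the peak at the gene end lies, a region 21.2 kb away (chr11:101806466-101807772) was open in Sox2-positive replicate 2 (signal 836), the incisor (1985) and the molars (1365 and 1527), and not in Sox2-positive replicate 1 or ectoderm.

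Etv5 (chr16:22381313-22439570, minus strand), the close relative of Etv4, had 9 and 5 peaks in ectoderm, 5 and 6 in the Sox2-positive libraries, 6 in the incisor and 8 in each molar, and the groups overlapped. Lists of equal length gave 3, 4, 4, 6, 5, 5 and 4. A body region 48.8 kb after the nearer start (chr16:22389095-22390103) was open in all 5 postnatal libraries and in neither ectoderm library with both kinds of list. Its signal was 1006 and 1251 in the Sox2-positive libraries, 1857 in the incisor, 2331 in the lower molar and 2510 in the upper molar, the highest in the sorted cells among such regions apart from the one past Fgfr1. A second body region, 8.97 kb after the nearer start (chr16:22428550-22430249), was open in all 7 libraries with signal 4742 and 4356 in ectoderm and from 477 to 1296 in the postnatal libraries. Each signal is its own list's value and read depth is unknown, so these are not a measured difference in openness. The ectoderm-only region of Etv5 was small, 307 bp at 25.4 kb past the gene (chr16:22355603-22355909, signal 455 and 234).

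Dusp6 (chr10:99263231-99267489) had 11 and 4 peaks in ectoderm, 6 and 6 in the Sox2-positive libraries, 11 in the incisor and 10 in each molar. The ectoderm replicates stood on opposite sides of the Sox2-positive cells, and the region over the start was the single one open in all 7 libraries. The numbers at equal length were 2, 3, 5, 6, 5, 5 and 5, again with all postnatal libraries above ectoderm. The covered share overlapped with either kind of list, at 5.77% ± 0.267 and 5.69% ± 1.07 with lists of equal length (SD, n = 2 each). Of 3 ectoderm-only regions, the strongest lay 22.0 kb past the gene (chr10:99289461-99290603, signal 1667 and 705), had no postnatal peak and was found with both kinds of list. No region near Dusp6 was Sox2-positive without ectoderm with full lists.

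**Figure D5:**
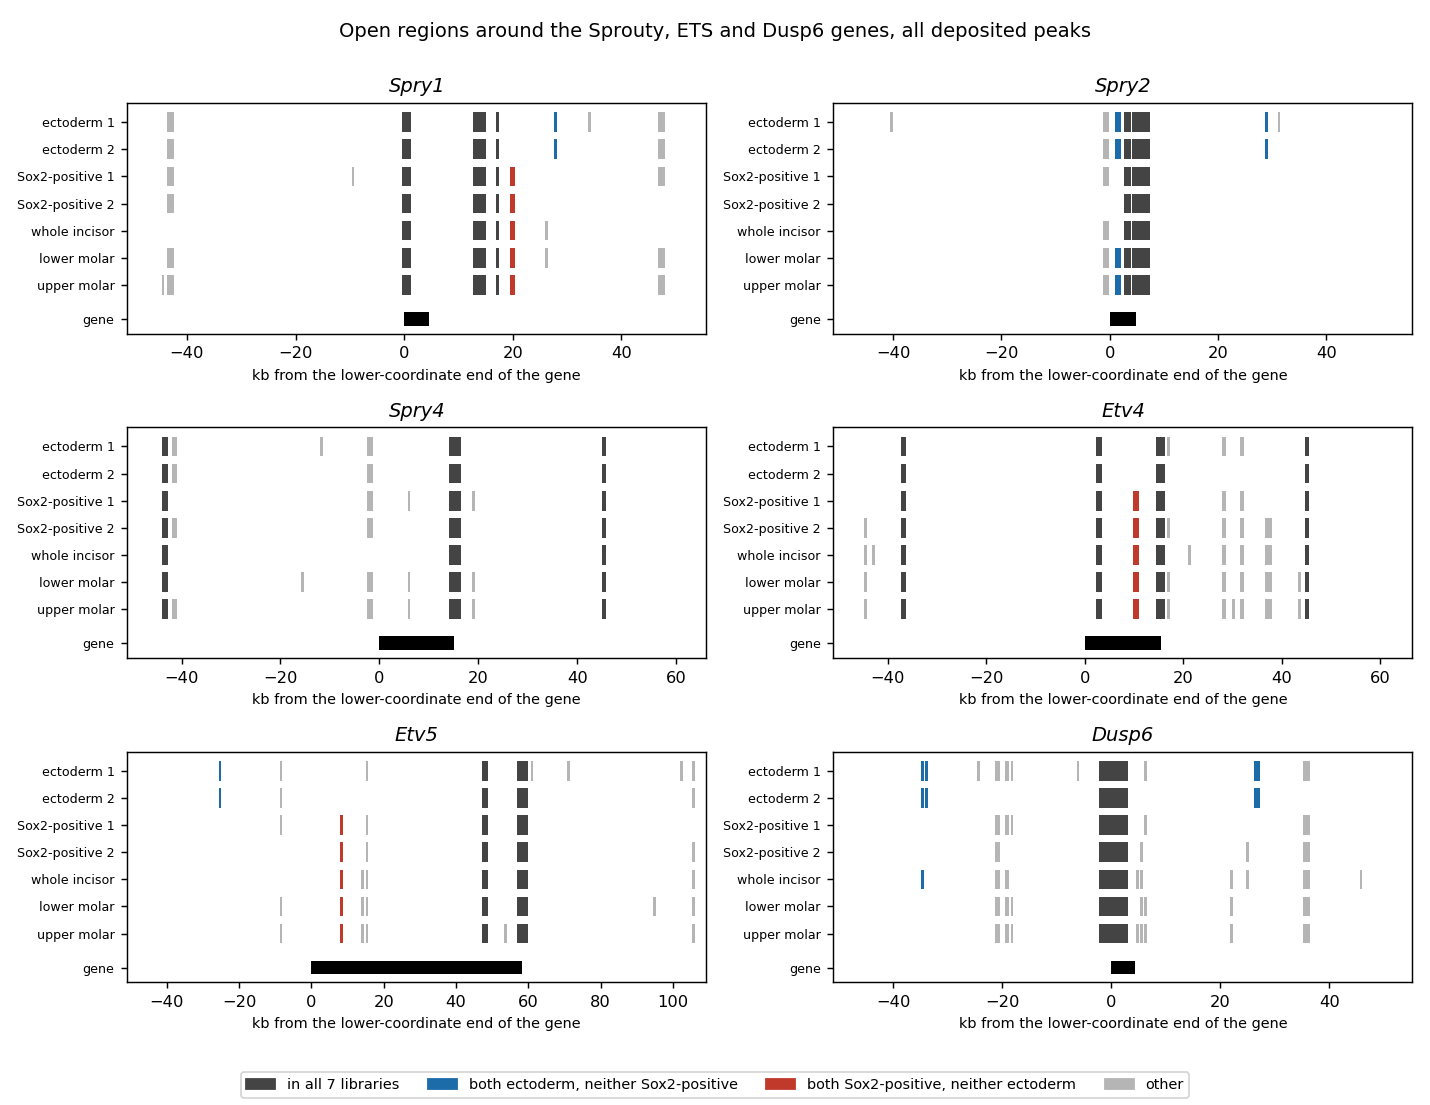
Open regions around Spry1, Spry2, Spry4, Etv4, Etv5 and Dusp6 by library (rows), with distance in kb from the lower-coordinate end of the gene on the horizontal axis and the gene body as a black bar. Narrow regions are widened to be visible. Spry1, Etv4 and Etv5 each have 1 region that is in all 5 postnatal libraries and not in ectoderm (red), a pattern that the Etv4 region loses in Sox2-positive replicate 1 with 38000 peaks per library, and Dusp6 has a wide region over its start in all 7 (dark grey).

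Summed over the 9 genes, 33 of 147 regions (22.4%) were open in all 7 libraries, against 16.4% of the regions near any protein-coding gene. At equal length it was 23 of 98 (23.5%) against 21.9%. Of the 118 regions seen in at least 1 ectoderm or Sox2-positive library, 18 (15.3%) were ectoderm-only against 22.5% near all genes, and 12 (10.2%) were Sox2-positive-only against 7.47%. Lists of equal length gave 8 of 89 (8.99%) ectoderm-only against 17.5%, and 16 (18%) Sox2-positive-only against 13.7%. These counts moved with list length. Of the regions named by the shorter lists, 6 of those 8 ectoderm-only regions were called with full lists as well. The other 12 ectoderm-only regions of the full lists were not, among them those of Fgfr1, Fgfr3, Spry2 and Etv5. Of the 16 Sox2-positive-only regions, 9 were called with full lists. The other 7 had an ectoderm peak there that the shorter lists left out. The p-value cut of the shorter lists was stricter in both ectoderm libraries than in either Sox2-positive library. These 7 are therefore not read as weaker in ectoderm.

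Distances from the centre of a region to the nearest start overlapped between the kinds, from 0.132 to 60.4 kb for regions open in all libraries, 2.76 to 105.0 kb for the ectoderm-only and 2.79 to 119.4 kb for the Sox2-positive-only regions. The start-site regions belong to the first kind because all 9 genes have a start-site peak in every library. All 12 Sox2-positive-only regions were also open in the whole incisor and 11 of them in at least 1 molar. Some whole tooth had a peak at 7 of the 18 ectoderm-only regions. The same counts over regions near all genes were not computed, so they are not read as particular to the 9 genes. Near all genes, 1.72% of regions seen in the Sox2-positive or incisor libraries were in both Sox2-positive libraries and not the incisor. The mesenchyme markers Pdgfra and Runx2 had start-site peaks in the same 5 postnatal libraries as the 8 regions open in all of these and not in ectoderm. The other markers of that list did not have this pattern with full lists. Msx1, Pdgfrb, Twist1, Col1a1, Col1a2 and Vim had start-site peaks in all 7 libraries. Prrx1 had one in ectoderm replicate 2 as well as the postnatal libraries, and Dspp in the whole incisor alone. Whether mesenchymal cells contributed to those 8 regions was not tested.

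Sorted Sox2-positive cells were compared with the whole lower incisor that contains them. With full lists, 2 of the 98 regions seen in these libraries (2.04%) were open in both Sox2-positive libraries and absent from the incisor, against 1.72% near all genes. These are the Spry1 and Spry4 regions given above, both also open in ectoderm and molars. In the other direction, 20 of 98 (20.4%) were open in the incisor and in neither Sox2-positive library, against 28.8%. Fgfr2 had 6 of them, Fgfr1 and Dusp6 4 each. With lists of equal length the counts were 6 of 78 (7.69%) against 6.73%, and 4 of 78 (5.13%) against 11.6%. A peak that is absent from the whole tooth and one that is carried by too few of its cells cannot be told apart.

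The incisor, which grows throughout life, was compared with the molars, which do not. With full lists, 22 of 116 regions (19.0%) were open in both molars and not in the incisor, against 16.7% near all genes. Fgfr2 had 8 of these, Fgfr1 and Spry4 3 each and Fgfr3 0. In the incisor and in neither molar were 11 of 116 (9.48%) against 13.5%, with 3 each at Fgfr3 and Dusp6. With lists of equal length the counts were 10 of 72 (13.9%) against 15.2%, and 13 of 72 (18.1%) against 17.6%. These shares lay near those of all genes, and with 1 library per tooth there is no replicate check. At Fgfr3 the peak number with lists of equal length was 12 in the incisor and 7 in each molar, and at Fgfr2 it was 12, 12 and 13.

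The wider pathway was read from 42 further genes for receptors, adaptors, RAS and ERK kinases and their inhibitors. Of these, 38 (90.5%) had a start-site peak in all 7 libraries with either kind of list, beside 55.7% and 51.4% of all genes. With full lists 13 of 42 (31.0%) had more peaks in both ectoderm libraries, among them the adaptor Frs2 and the phosphatase Ptpn11, and 2 (4.76%), the ERK kinase kinase Map2k1 and the phosphatase Dusp5, had more in both Sox2-positive libraries. With lists of equal length the numbers were 6 (14.3%) and 13 (31.0%). The latter held Map2k1, Map2k2, Dusp5, Dusp7, the receptor antagonist Il17rd and the ETS genes Etv1 and Ets1. Over all genes the shares were the 46.2% and 3.43% given above with full lists, and 23.1% and 20.2% at equal length, so the shift with list length was general. By covered share at equal length, 22 of 42 (52.4%), Dusp7 among them, were higher in both ectoderm libraries, against 56.9% of all genes. In both Sox2-positive libraries 3 (7.14%) were higher, against 10.7%.

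For each of the 9 genes the most similar pattern of covered share over the 7 libraries, with lists of equal length, was sought among the other 8 and the pathway genes. These Pearson correlations describe 7 points that share list length and stage, and each is the highest of 50. Spry1 was most like Flrt3 (r = 0.94), Dusp6 like Fgfrl1 (0.93), Etv5 like Ptpn11 (0.86), Fgfr1 like Myc (0.85) and Fgfr2 like Frs2 (0.85). Spry2 was most like Rps6ka1 (0.84), Etv4 like Ets1 (0.78), Spry4 like Ccnd1 (0.77) and Fgfr3 like Map2k2 (0.68). None of the 9 had another of the 9 as its closest match.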

How the data were processed

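Omni-ATAC libraries of 5 groups (7 libraries) were used as 1 deposited peak list each, called per library. Per the submitters' processing notes the tools were FastQC, Trimmomatic, Bowtie2, deepTools and Genrich and the build mm10, and read filters and options are not given in the sources used here. The deposited signal and −log10 p-value of each peak are the authors' own and served here to order and select peaks of the same list. The deposited q-value column holds no values. Reads per library are unknown, so no count model was used.

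Peaks of the 19 autosomes and the GRCm38.p6 RefSeq genes were joined with Python 3.11.15, pandas 2.3.3 and numpy 2.4.6. Regions were unions of peaks over all libraries (overlap of 1 bp), and a region was called from presence in both or neither library of a group. The overlap and count code was tested on simulated data. The annotation used gives no exons, and strand for 6 of the 9 genes.

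The genes, the 42 pathway genes and the 8 marker lists were chosen with earlier results of these data known. All 9 genes are named. The regions named by rule are, per gene, the ectoderm-only and Sox2-positive-only regions with the largest lower signal of the 2 replicates, and the region in all 7 libraries with the largest lowest signal. Other regions printed were chosen after their values were seen. Alternatives were list length and ranking, window size, overlap, summits, nearest gene, leaving out each replicate and pairing by replicate number. The setting that joins equal length with nearest gene was chosen after seeing the data.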

Additional observations from a re-analysis of the deposited data

How the results depend on the processing

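Of 98 recomputed values, 61 kept their value within 1.5 times. Ectoderm had more peaks at 2 genes, and at 0 with 38000 peaks ranked by p-value or by signal and 0 with 38000 peaks by p-value and nearest gene, 1 (Spry1) with the 50% of each list with smallest p-values, and 2 to 5 when each replicate was left out (5 without ectoderm replicate 2). Sox2-positive cells had more at 2 genes, and at 4 with either ranking, 0 with the 50% lists, 1 in 25 kb windows, 0 by nearest gene and 2 to 4 with a replicate left out (4 without ectoderm replicate 1). In 100 kb windows each count stayed at 2, with Fgfr2 and Spry1 for ectoderm and Fgfr3 and Etv4 for the Sox2-positive cells. A replicate block, comparing libraries of the same number, gave 3 and 2 genes. The labels do not say that numbers mark shared animals, so it is no paired design. Ectoderm-only regions (18) became 8 with 38000 peaks by p-value, 7 with these and nearest gene, 11 with the 50% lists, 29 in 100 kb windows, 28 when 50% of a region had to be covered, and 18 to 42 with a replicate left out (42 without ectoderm replicate 2). Sox2-positive-only regions (12) became 4, 21 and 12 to 21 with the 50% lists, 100 kb windows and replicates left out (21 without Sox2-positive replicate 1 and 19 without ectoderm replicate 1).

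Sox2-positive regions absent from the incisor (2) became 6 and 5 with 38000 peaks by p-value and by signal, 1 with the 50% lists, in 25 kb windows and by nearest gene, 5 around summits and 5 to 11 with a replicate left out (5 without Sox2-positive replicate 1, 11 without replicate 2). Incisor regions absent from the Sox2-positive cells (20) became 4, 5 and 13 with the 2 rankings and the 50% lists, and 24 to 29 with a replicate left out. Regions of both molars and not the incisor (22) became 10, 14 and 34 by p-value, with the 50% lists and in 100 kb windows, and those of the incisor alone (11) became 7 in 25 kb windows and 17 around summits. Start-site peaks in all 7 libraries held for 9 genes under each setting except the 50% lists, which gave 8. The cause of these moves was not tested beyond what fewer or more peaks, wider windows and fewer libraries bring by construction. Depth is unknown, so a missing peak is not closed chromatin.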

Other observations

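Replicate libraries shared only part of their open regions near the 9 genes. The shares over regions near all genes were not computed, so these values are not read as a trait of the 9 genes. With full lists, 60 of the 92 regions seen in ectoderm (65.2%) were in both replicates, and all 32 others were in replicate 1, which has the longer list. The Sox2-positive replicates shared 53 of 78 regions (67.9%), with 13 in replicate 1 alone and 12 in replicate 2 alone. The lower and upper first molar, which are different teeth, shared 86 of 105 (81.9%). With lists of equal length the shares were 40 of 52 (76.9%), 49 of 74 (66.2%) and 52 of 59 (88.1%).

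Regions found in 1 of the 2 Sox2-positive replicates were counted at each gene with full lists. Dusp6 had 5 (3 in replicate 1 and 2 in replicate 2), Fgfr2 had 4, and Fgfr3, Spry4 and Etv4 had 3 each. Fgfr1, Spry1 and Etv5 had 2 each and Spry2 had 1. The genes differ in their number of regions, such as 38 near Fgfr2, 16 near Dusp6 and 7 near Spry2. No share over all genes was computed for these counts. Some of the regions in 1 replicate were open in replicate 2 and all whole teeth and in neither replicate 1 nor ectoderm. They were chr11:101806466-101807772 and chr11:101724911-101725474 at Etv4 (signal 836 and 411 in replicate 2), chr7:130140082-130140722 and chr7:130167052-130167709 at Fgfr2 (626 and 306) and chr10:99268582-99269119 at Dusp6 (219). These regions were singled out after their values were seen.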
